A study of Mus musculus with 59 samples.

Results

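Wild-type mice that had received fluoxetine before weaning were compared with wild-type mice that had received vehicle. The members were chosen by their labels alone, as the libraries titled wild type (WT) with fluoxetine or with vehicle, and they make up 19 of the 59 libraries of the series. The fluoxetine group held 9 libraries, 5 from females and 4 from males, and the vehicle group held 10, 5 from each sex. All were mRNA libraries of prefrontal cortex, taken from C57BL/6J mice on postnatal day 25 and prepared with a stranded TruSeq kit. Treatment had lasted 3 weeks, from day 3 to day 24, and the pups took up the drug with the milk of their mothers. Both groups carried 2 unaltered copies of Ank2, the gene that is altered in 1 copy in the heterozygotes (HT) of the same series. The other groups used below are HT fluoxetine, HT vehicle, WT lithium and, for its length slopes only, HT lithium. Each had 10 libraries of the same strain, age, tissue and route. The labels name no mother, litter, dose or batch. A litter effect and a drug effect can therefore not be told apart, and p-values measure the spread between these libraries.

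Fluoxetine is a selective serotonin reuptake inhibitor: it blocks the transporter SERT, coded by Slc6a4, which returns released serotonin to the nerve ending. Serotonin neurons have their cell bodies in the raphe nuclei of the brainstem and send axons throughout the cortex, where several receptor types read the transmitter. In early postnatal life the prefrontal cortex is still forming synapses, maturing its inhibitory circuits and refining its incoming axons, and serotonin acts on these processes.

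The values of a library summed to between 30.29 and 33.36 M, and 22606 to 23745 genes were above 0. If all genes of a library shared a normalization factor, an estimated 25.85 to 36.53 M reads lay behind these values. Markers of excitatory neurons and glia were present in every library. The summed level of 10 excitatory neuron markers was 137486 or more, that of oligodendrocyte markers 119397 or more and that of astrocyte markers 151077 or more. Xist was at 29461.8 or more in all females and at 71.3 or less in all males. Some libraries stood apart. The mean log2 deviation of 10 olfactory bulb markers was 1.79 in WT fluoxetine male replicate 1, 1.90 and 1.58 in WT vehicle female replicates 1 and 2, -1.58 in WT vehicle male replicate 4 and -3.53 in WT fluoxetine male replicate 4. Striatal markers deviated by 0.66 in WT fluoxetine female replicate 1, by 0.60 in WT fluoxetine male replicate 4 and by 0.79 in WT vehicle male replicate 2. Results are given below also without the 5 olfactory outliers (7 libraries left in each group) and without the 3 striatal outliers where this mattered. Both choices were made after the data were seen. Another difference ran along the treatment: in each fluoxetine library long transcripts were read more, and short ones less, than in the vehicle libraries. The slope of log2 deviation on log2 transcript length was 0.0201 to 0.0621 (median 0.0338) in the fluoxetine libraries and -0.0382 to -0.0098 (median -0.0232) in the vehicle libraries. The groups did not overlap on this slope, so the slope and the drug cannot be told apart from these libraries. The median transcript length is given for many of the gene groups, but not for all.

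The first question was how many mRNAs differed between the drug groups, and by how much. Of 16919 genes tested, limma called 1184 higher with fluoxetine (7.00% of the genes tested) and 1316 lower (7.78%), at a Benjamini-Hochberg adjusted p under 0.05. The changes were small: the median log2 change of the called genes, without its sign, was 0.20. Only 243 genes rose and 407 fell by more than 1.2-fold, 53 and 31 by more than 1.5-fold, and 15 and 7 by more than 2-fold. For 91 genes (0.538%) all 9 fluoxetine libraries lay above all 10 vehicle libraries, and for 165 (0.975%) they lay below. With each library centred on its median, 63.6% of the calls were upward, against 47.4% as deposited. Leaving out the 5 olfactory outliers gave 279 genes called higher and 519 lower, and leaving out the 3 striatal outliers gave 609 and 876. With the length slope of the libraries as a covariate 7 genes were called, and the main comparison shares 4 of them: Usmg5, Ppia, Lifr and Eef2. The other 3 were Parvg, Cenpb and Aldoc.

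**Figure D1:**
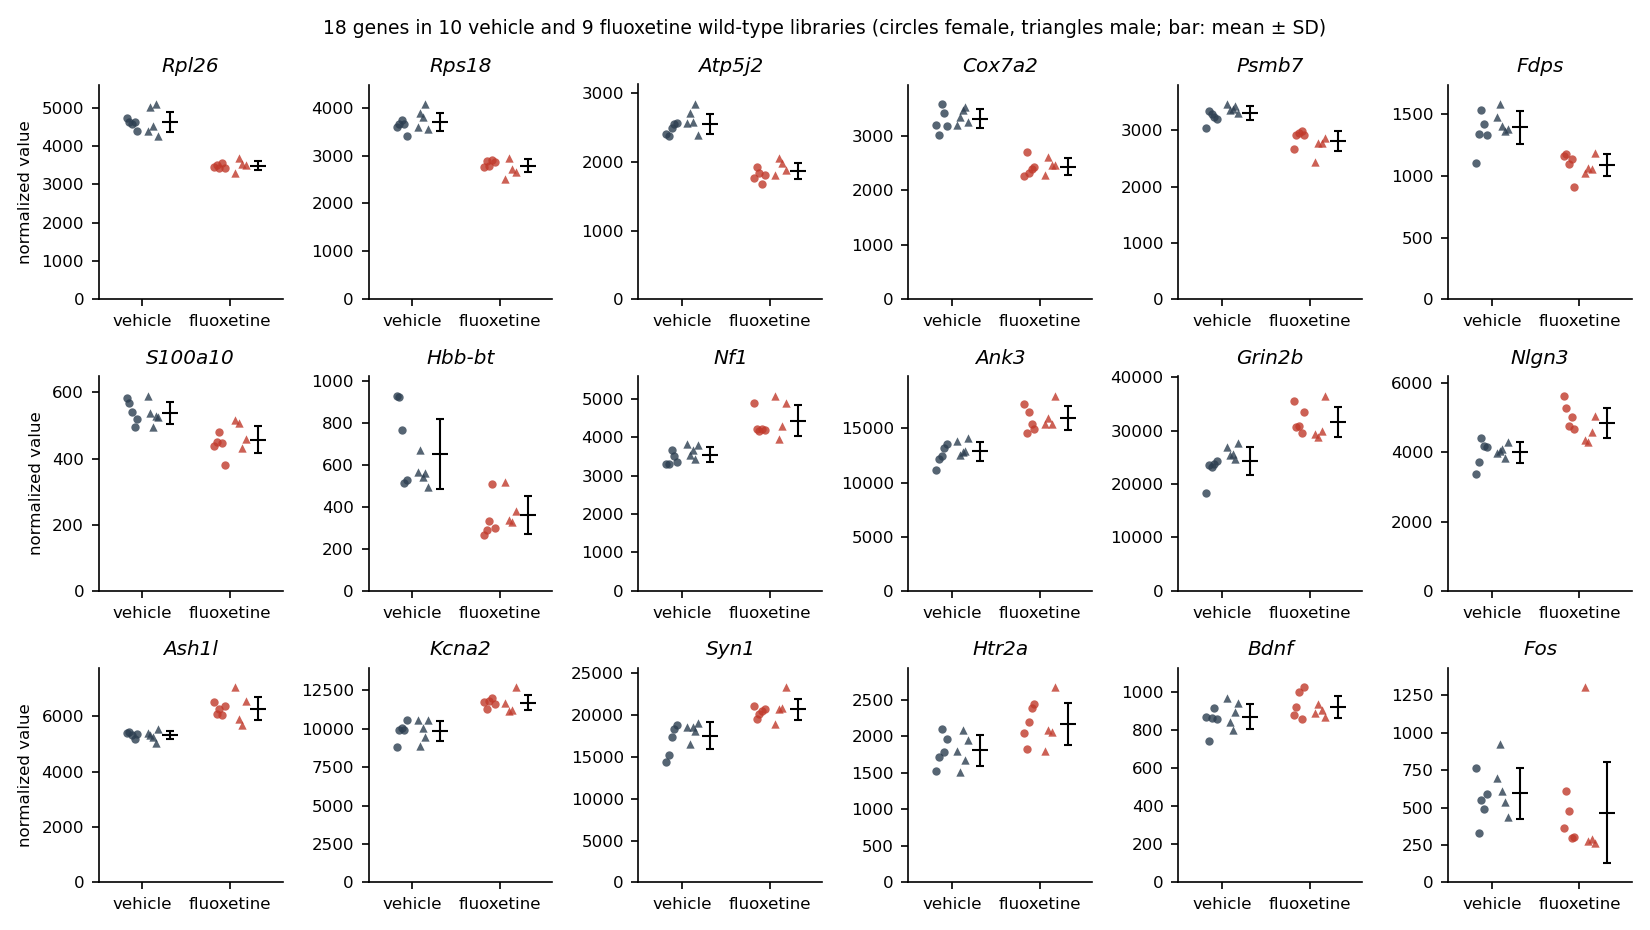
Normalized value (y axis, from 0) of 18 genes in each wild-type library, vehicle in dark blue and fluoxetine in red, circles for females and triangles for males, with the mean and SD of each group. The 9 fluoxetine libraries lie below all 10 vehicle libraries for Rpl26, Rps18, Atp5j2, Cox7a2 and Psmb7 and above them for Nf1, Ank3, Grin2b, Ash1l and Kcna2, while for Htr2a, Bdnf and Fos the groups overlap.

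The direct target of the drug and the serotonin receptors showed few differences. Slc6a4, the serotonin transporter, was close to the lower limit of the measurement, at 1.103, 4.691 and 26.45 (lowest, median and highest of 9) with fluoxetine and at 1.714, 5.035 and 8.182 (of 10) with vehicle, and was not tested. Of 12 measured serotonin receptor genes limma called 0, with 1 at an unadjusted p under 0.05, and their median log2 change was 0.08. Htr2a, an excitatory receptor of cortical pyramidal neurons, was at 1797, 2090 and 2677 with fluoxetine and at 1519, 1790 and 2104 with vehicle. The libraries overlapped widely, and the log2 change of 0.26 (SE 0.16) did not pass (adjusted p = 0.31). Htr1a, an inhibitory receptor, changed by 0.12 on the log2 scale (SE 0.10, adjusted p = 0.51), Htr2c by -0.04 (SE 0.18, adjusted p = 0.93) and the ion channel receptor Htr3a by -0.20 (SE 0.08, adjusted p = 0.097). Of 13 genes for other monoamine receptors limma also called 0, with 1 at an unadjusted p under 0.05.

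A list of 12 genes, drawn up for serotonin synthesis, transport, breakdown and receptor partners, had 2 falls. Of all genes tested 7.78% were called lower. S100a10, also called p11, is a small protein that brings certain serotonin receptors to the cell surface. Its values were 381.3, 449.9 and 517.9 with fluoxetine and 494.9, 532.3 and 590.3 with vehicle, so that only the upper end of the fluoxetine libraries reached the vehicle range. S100a10 fell to 0.852-fold (log2 change -0.23, SE 0.06, adjusted p = 0.0043). Tmem97, the sigma-2 receptor, which is not itself a gene of serotonin handling, fell to 0.866-fold (adjusted p = 0.0064). Neither was called without the 5 olfactory outliers (adjusted p = 0.080 and 0.059) or after the trend with length and GC content was removed (0.16 and 0.085). Smpd1, the acid sphingomyelinase that antidepressants inhibit, was at 1.02-fold and gave no call (adjusted p = 0.67).

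The largest rises among named genes with a mean of at least 50 were a mixed group. Bc1, a short noncoding RNA that is carried into dendrites and represses translation there, was at 910.3, 2548 and 3765 with fluoxetine and at 837.2, 1172 and 1578 with vehicle. Most fluoxetine libraries lay above the vehicle range, but 2 lay within it. Bc1 rose to 2.01-fold (log2 change 1.01, SE 0.29, adjusted p = 0.011), although it is one of the shortest RNAs measured. The DNA repair gene Brca2 rose to 1.81-fold (adjusted p = 0.015), with log2 changes of 0.36 in females and 1.36 in males. Syt2, a fast calcium sensor of synaptic vesicles, rose to 1.57-fold (adjusted p = 0.0064), the X-linked gene Aff2 to 1.41-fold (adjusted p = 0.00062), Mcc to 1.36-fold (adjusted p = 1.5e-05) and Kcng4, a modifying potassium channel subunit, to 1.34-fold (adjusted p = 0.00053). Lifr, the receptor of leukemia inhibitory factor, rose to 1.35-fold (adjusted p = 0.0002) and was also called with the length slope as a covariate (log2 change 0.63, adjusted p = 0.037). Bc1 and Syt2 were not called without the 3 striatal outliers (adjusted p = 0.063 and 0.088). Bc1, Brca2 and Syt2 were not called without the 5 olfactory outliers (adjusted p = 0.22, 0.088 and 0.17), and Brca2 was not called after removal of the length and GC trend (adjusted p = 0.067).

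The smallest p-values upward belonged to genes of smaller but steadier change. Nf1 codes for neurofibromin, which switches off Ras (chromosome 11, 79339693 to 79581612, GRCm38). Its values were 3952, 4220 and 5085 with fluoxetine and 3307, 3520 and 3818 with vehicle. Every fluoxetine library lay above every vehicle library, a rise to 1.25-fold (log2 change 0.32, SE 0.04, adjusted p = 4.8e-08). Groups were also apart for Prrc2b (1.14-fold, adjusted p = 9.4e-08), for the corepressor gene Ncor1 (1.19-fold, adjusted p = 3.2e-07) and for the kinase gene Taok1 (1.25-fold, adjusted p = 4.8e-07). Celsr2, a cadherin that guides dendrites and axons, rose to 1.24-fold (adjusted p = 6.9e-07) with overlapping groups.

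Among the falls with the smallest p were components of several basic cell machines. Elob codes for elongin B, a partner in transcription elongation and in ubiquitin ligases (chromosome 17, 23824738 to 23829136, GRCm38). It was at 1814, 1955 and 2057 with fluoxetine and at 2409, 2491 and 2774 with vehicle, with no overlap, and fell to 0.774-fold (log2 change -0.37, SE 0.04, adjusted p = 2.4e-10). Ppia, the protein-folding enzyme cyclophilin A, fell to 0.777-fold (adjusted p = 1.4e-09), again without overlap. It has near-identical copies in the genome, so its value is uncertain where reads were shared. The largest falls also held Slirp, which stabilizes mitochondrial mRNA, at 0.696-fold (adjusted p = 4e-07) and Rpl22l1, a paralog of a ribosomal protein, at 0.687-fold (adjusted p = 1.5e-08). Dnaaf2, needed to assemble ciliary dynein, fell to 0.652-fold (adjusted p = 0.0022), and Dynlt1c, a dynein light chain with close copies, to 0.665-fold (adjusted p = 0.0053). The call of Dynlt1c was lost without the olfactory or the striatal outliers (adjusted p = 0.077 and 0.15).

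Messenger RNAs of the cytoplasmic ribosome fell widely. Of 47 genes of the large subunit 33 fell and 0 rose, with a median log2 change of -0.26, and of 33 genes of the small subunit 30 fell and 0 rose, with a median of -0.25. The median over all genes tested was 0.00. Rpl26 (chromosome 11, 68901583 to 68906989, GRCm38) was at 3288, 3504 and 3694 with fluoxetine and at 4274, 4606 and 5098 with vehicle. The highest fluoxetine library lay far under the lowest vehicle library, and Rpl26 fell to 0.755-fold (log2 change -0.41, SE 0.04, adjusted p = 6.8e-10). Rps18 was at 2520, 2787 and 2943 against 3413, 3655 and 4073, also with no overlap, and fell to 0.751-fold (adjusted p = 2e-09). Rpl15 fell to 0.794-fold and Rps19 to 0.744-fold, the latter with overlapping groups. For 13 genes of the large and 13 of the small subunit all fluoxetine libraries lay below all vehicle libraries.

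These ribosomal mRNAs are short, with a median transcript length of 711.5 nucleotides for the large and 681 for the small subunit, against 2190.75 for all genes tested. After the length and GC trend was removed 27 and 22 of them fell, without the 5 olfactory outliers 24 and 21, and leaving out any 1 library 33 to 36 and 28 to 30. With the length slope as a covariate their medians were 0.00 and -0.02. Ribosomal protein genes have many processed pseudogenes that can share reads with them. Of 14 such pseudogenes tested 1 was called higher and 2 lower.

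Factors that act with the ribosome split by size. Of 41 translation factors 13 fell and 5 rose. Those that fell had a median transcript length of 1101 nucleotides and those that rose 3089. Eif1, which helps the ribosome to find the start codon, was at 5601, 6018 and 6322 with fluoxetine and at 6364, 7215 and 7518 with vehicle, apart in every library, and fell to 0.844-fold (adjusted p = 6.5e-08). The elongation factor subunit Eef1b2 fell to 0.832-fold and the helicase Eif4a1 to 0.864-fold. Scaffold genes of the cap-binding complex rose, Eif4g3 to 1.15-fold (adjusted p = 0.00091) and Eif4g1 to 1.08-fold (adjusted p = 0.0019), as did the translocation factor Eef2 to 1.07-fold (adjusted p = 0.012). With quantile normalization Eif4g1 and Eef2 were not called (adjusted p = 0.28 and 0.63). The 5 rises were 3 without WT fluoxetine male replicate 4 and 1 without the 5 olfactory outliers, where 5 genes fell.

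Nuclear genes of the mitochondrial respiratory chain also fell widely. In complex I, which takes electrons from NADH, 32 of 36 subunit and assembly genes fell and 0 rose (median log2 change -0.24). In complex II 3 of 4 fell, in complex III 5 of 10, in complex IV, the cytochrome c oxidase, 10 of 12 (median -0.29), and in the ATP synthase 13 of 18 (median -0.19), with no rise in any of these lists. Usmg5, a small subunit of the ATP synthase (chromosome 19, 47083464 to 47090647, GRCm38), had the smallest p of all genes named here. It was at 1821, 2122 and 2478 with fluoxetine and at 2756, 2979 and 3321 with vehicle, with a clear gap between the groups. It fell to 0.711-fold (log2 change -0.49, SE 0.05, adjusted p = 1.9e-10), and by 0.32 on the log2 scale with the length slope as a covariate (adjusted p = 0.037). Atp5j2 fell to 0.735-fold and Atp5e to 0.693-fold, both with no overlap.

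In complex IV, Cox7a2 was at 2258, 2418 and 2703 with fluoxetine and at 3002, 3286 and 3578 with vehicle, and fell to 0.735-fold (adjusted p = 1.6e-08). Cox6c fell to 0.749-fold (adjusted p = 6.2e-06). Groups were apart for both. In complex I, Ndufa6 fell to 0.825-fold and Ndufb11 to 0.799-fold, in complex II Sdhb to 0.88-fold and in complex III Uqcrh to 0.81-fold. Removal of the length and GC trend gave 22 falls in complex I, 6 in complex IV and 8 in the ATP synthase, whose genes have median transcript lengths of 733.5, 615.5 and 696.5 nucleotides. The falls were 31, 7 and 10 without the 5 olfactory outliers.

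The mRNAs that mitochondria transcribe from their own genome did not share this fall. Of 13, 0 fell and 2 rose, and their median log2 change was 0.00. These were mt-Nd6, the subunit coded on the other strand than the rest, at 1.25-fold (adjusted p = 0.015), and mt-Nd4l at 1.39-fold (adjusted p = 0.04). mt-Nd4l was at 12070, 19360 and 33580 with fluoxetine and at 9976, 14960 and 27070 with vehicle, with wide overlap, and it was called in 7 of 19 fits that each left out 1 library. After removal of the length and GC trend mt-Nd6 was not called (adjusted p = 0.088), and without the 5 olfactory outliers mt-Nd4l was not (adjusted p = 0.17). Genes of the mitochondrial ribosome, which are nuclear, fell in 32 of 77 and rose in 1, Mrps30. That rise was lost in 4 of 19 fits without 1 library, after removal of the length and GC trend (adjusted p = 0.22) and without the olfactory outliers (adjusted p = 0.17). Mrpl33 fell to 0.733-fold (adjusted p = 1.8e-07) and Mrpl53 to 0.766-fold (adjusted p = 8.7e-07), both with no overlap. The 32 falls were 17 after removal of the length and GC trend, 19 without the olfactory and 21 without the striatal outliers. Lars2, the mitochondrial leucyl-tRNA synthetase, fell to 0.641-fold (adjusted p = 0.043) but in only 7 of 19 fits that left out 1 library. Of 22 genes of mitochondrial protein import and carriers 8 fell and 1, Tomm34, rose. Tomm5, a small part of the outer membrane pore, fell to 0.81-fold (adjusted p = 1.1e-05). The 8 falls were 4 after removal of the length and GC trend and 3 without the olfactory outliers. Tomm34 was called in 10 of 19 fits without 1 library, and not without the olfactory or striatal outliers (adjusted p = 0.29 and 0.32).

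Other small and abundant complexes showed partial falls. Of 32 proteasome genes 15 fell and 0 rose (median log2 change -0.08). Psmb7, a catalytic subunit, was at 2427, 2857 and 2981 with fluoxetine and at 3033, 3319 and 3461 with vehicle, apart by a narrow gap, and fell to 0.846-fold (adjusted p = 7.4e-08). Psmb5, another catalytic subunit, fell to 0.824-fold (adjusted p = 3.2e-07). Of 21 Sm and LSm proteins, which form the core of the spliceosome's small nuclear particles, 10 fell and 0 rose (median -0.15), among them Snrpd1 at 0.871-fold and Snrpg at 0.687-fold. The value of Snrpg was 157.7 in WT fluoxetine male replicate 1 and 320.8 to 401.5 in the other 8. The Sm and LSm falls were 5 after removal of the length and GC trend and 3 without the 5 olfactory outliers, where Snrpg was not called (adjusted p = 0.1).

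**Figure D2:**
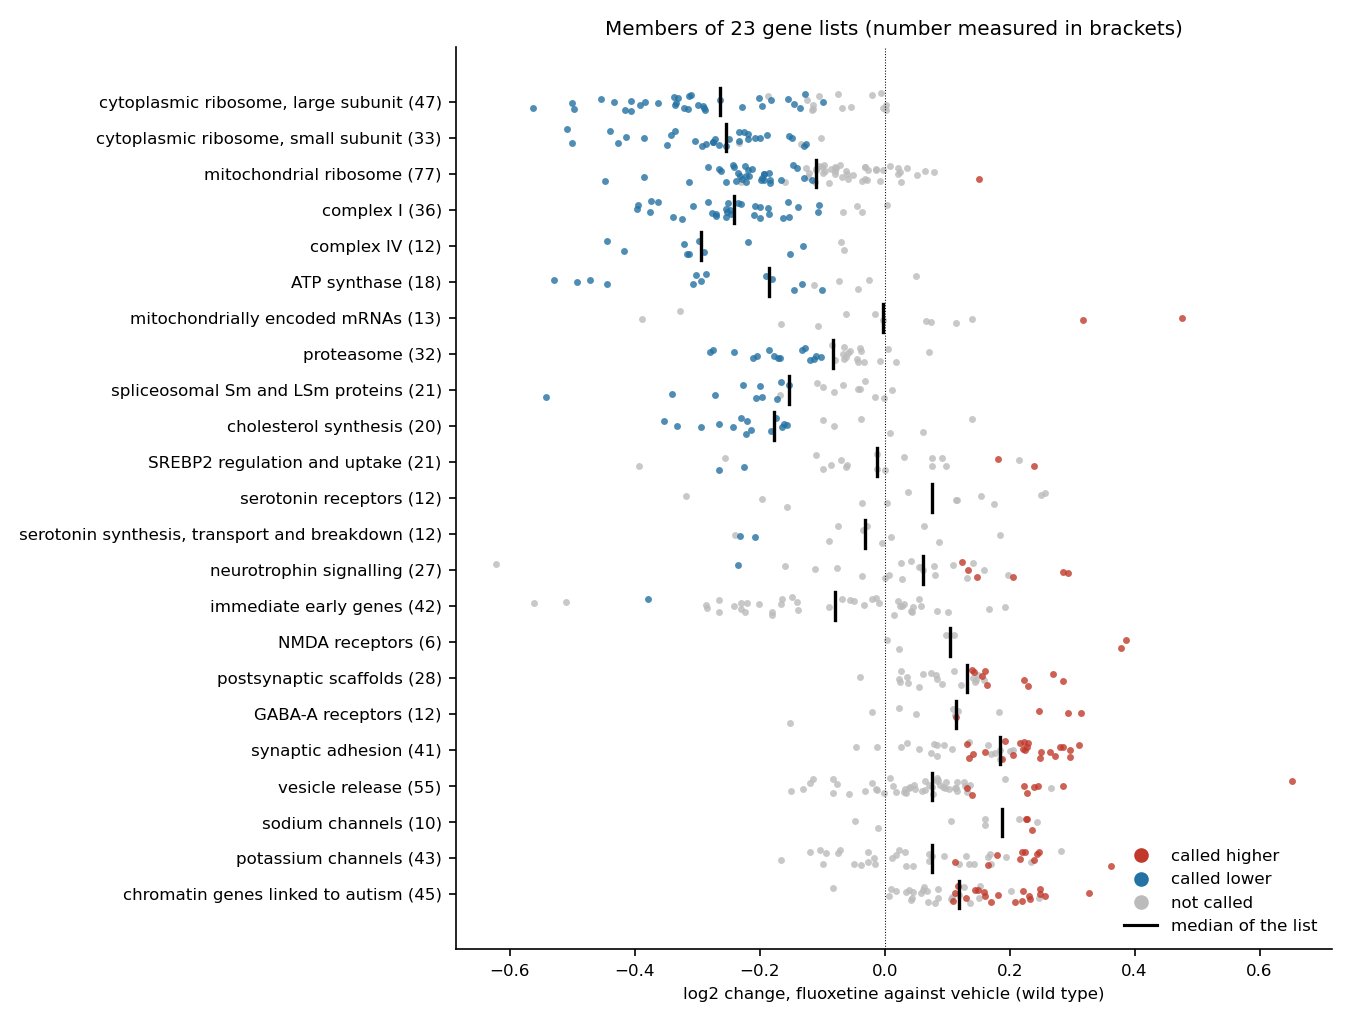
Log2 change between WT fluoxetine and WT vehicle (x axis) of each measured member of 23 gene lists (rows), red where called higher, blue where called lower and grey where not called, with a black bar at the median of the list. Ribosomal, respiratory chain and cholesterol synthesis genes lie mostly on the left and synaptic adhesion genes mostly on the right, while serotonin receptors lie on both sides with none called.

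Genes of cholesterol synthesis formed a further group that fell. Their median transcript length lay above that of the ribosomal lists and below the 2190.75 nucleotides of all genes tested. Neurons and glia of the young brain make their own cholesterol, since that of the blood does not cross the blood-brain barrier, and the enzymes are switched on together by the transcription factor SREBP2 when the sterol content of the endoplasmic reticulum drops. Of the 20 enzymes from acetyl-CoA to cholesterol, 14 fell and 0 rose, with a median log2 change of -0.18 and a median transcript length of 1716.5 nucleotides. Genes of like length, in the decile from 1442.5 to 1795 nucleotides, had a median of -0.04, with 7.60% called lower. Fdps, the farnesyl diphosphate synthase (chromosome 3, 89093588 to 89101959, GRCm38), was at 908.2, 1096 and 1183 with fluoxetine and at 1102, 1388 and 1580 with vehicle. The groups overlapped through 1 vehicle library, female replicate 1, whose value of 1102 stood below the 1331 to 1580 of the other 9. Fdps fell to 0.783-fold (log2 change -0.35, SE 0.05, adjusted p = 2.2e-06).

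Tm7sf2, a sterol reductase, was at 383.3, 470.7 and 565.7 with fluoxetine and at 500.1, 608.7 and 727.9 with vehicle, and fell to 0.794-fold (adjusted p = 0.00011). Idi1, the isopentenyl diphosphate isomerase, fell to 0.815-fold (adjusted p = 0.00062) and Msmo1, a sterol methyl oxidase, to 0.833-fold (adjusted p = 0.0015). The groups overlapped for each of the 3, but no fluoxetine library lay above the vehicle range. Removal of the length and GC trend gave 10 falls in the list, with a median of -0.17, and took the call from Msmo1 (adjusted p = 0.066). In the list 10 fell without the 5 olfactory outliers, 12 without the 3 striatal outliers, and leaving out any 1 library 11 to 14. With the length slope as a covariate 0 genes of the list were called, and its median was -0.12.

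The regulators of the pathway had few calls: of 21 genes of SREBP2 control, uptake and export 2 rose and 2 fell, shares near those of all genes. Leaving out 1 library gave 1 rise in 6 cases, 5 falls without WT fluoxetine female replicate 2 and 4 falls without WT vehicle female replicate 3. Scap, which carries SREBP2 to its activating proteases, rose to 1.13-fold (adjusted p = 0.0005), and the cholesterol exporter Abcg1 rose to 1.18-fold (adjusted p = 0.032), a call that was lost in 8 of 19 fits without 1 library. Stard4, a sterol carrier, fell to 0.832-fold (adjusted p = 0.0019), and Insig1, which holds SCAP back and is itself an SREBP2 target, fell to 0.855-fold (adjusted p = 0.0048). Insig1 and Abcg1 were not called without the 5 olfactory outliers (adjusted p = 0.12 and 0.44). Of 31 genes of fatty acid and phospholipid synthesis 3 fell and 0 rose, a share of calls near that of all genes.

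Promoters of this pathway are shown because its members moved together. In RefSeq promoter windows (GRCm38.p6), from 250 bases before to 50 after the start, 15 of the 20 enzymes had an entry. Fdps, Fdft1 and Sqle were among those with none. SREBP proteins work with NF-Y, a factor that binds the CCAAT box, and 2 motifs were searched on both strands, both chosen after the results were seen. A gene was counted if any of its windows held the motif. GATTGG, which holds a CCAAT box on its other strand (CCAATC), was found for 13 of the 15 enzymes (86.7%). Over all genes with a window it was found for 4924 of 27025 (18.2%). Among the 10 enzymes with a window that fell it was in 8 (80%), and all 5 enzymes with a window that were not called held it too. GATTGG was found for 5 of 34 large subunit ribosomal genes with a window (14.7%), 4 of 25 small subunit genes (16%) and 6 of 32 genes of complex I (18.8%). TCACNCCAC, one form of the sterol regulatory element, was found for 1 of the 15 enzymes (6.67%) and for 388 of all genes with a window (1.44%). The motifs do not overlap each other. The 200 bases before the start are printed for the 3 named enzymes with a window, 5′ to 3′ on the strand of the gene, with GATTGG or CCAATC in capitals. They lie at chr19:6067851-6068050 on the minus strand for Tm7sf2, at chr13:8885406-8885605 on the plus strand for Idi1 and at chr8:64733579-64733778 on the minus strand for Msmo1. A match describes the letters and does not show binding.
Tm7sf2: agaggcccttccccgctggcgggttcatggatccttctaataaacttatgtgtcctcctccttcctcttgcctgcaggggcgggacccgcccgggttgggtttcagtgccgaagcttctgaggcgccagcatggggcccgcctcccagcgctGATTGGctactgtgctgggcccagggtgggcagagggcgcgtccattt
Idi1: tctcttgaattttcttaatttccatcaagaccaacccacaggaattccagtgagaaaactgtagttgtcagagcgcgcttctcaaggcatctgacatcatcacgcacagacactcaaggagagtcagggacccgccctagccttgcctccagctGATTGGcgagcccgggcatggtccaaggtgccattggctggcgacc
Msmo1: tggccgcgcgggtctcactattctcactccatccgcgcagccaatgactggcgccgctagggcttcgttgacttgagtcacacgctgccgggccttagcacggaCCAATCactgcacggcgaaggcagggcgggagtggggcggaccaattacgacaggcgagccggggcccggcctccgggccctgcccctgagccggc

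At the excitatory synapse calls were upward, and few among AMPA, kainate and metabotropic receptors. Of 6 measured NMDA receptor genes 2 rose and 0 fell. The share called higher was 7.00% over all genes and 23.6% in the decile with the highest mean values. Grin2b, the subunit that dominates early in life (chromosome 6, 135713233 to 136173511, GRCm38), was at 28800, 30740 and 36560 with fluoxetine and at 18280, 24460 and 27750 with vehicle. The groups did not overlap, and Grin2b rose to 1.3-fold (log2 change 0.38, SE 0.06, adjusted p = 6.2e-06). Grin2a, the subunit that joins later, was at 8013, 9439 and 10700 with fluoxetine and at 5668, 7202 and 8149 with vehicle, with overlap at the edges, and rose to 1.31-fold (adjusted p = 4.2e-05). Both stayed called after removal of the length and GC trend and without the olfactory outliers. Among 23 AMPA and kainate receptor genes 1 rose, a share below that of all genes, and leaving out 1 library gave 0 to 2 rises. Of 7 metabotropic receptor genes only Grm5 rose, to 1.14-fold (adjusted p = 0.046), and in 7 of 19 fits without 1 library.

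Of 28 postsynaptic scaffold genes 9 rose and 0 fell, with a median log2 change of 0.13 and a median transcript length of 3920.5 nucleotides. Dlgap1 rose to 1.11-fold (adjusted p = 9.9e-05), Lrrc7 to 1.17-fold (adjusted p = 0.00031) and Shank1, a large scaffold of the spine, to 1.22-fold (adjusted p = 0.00041). Shank1 was at 19430, 21090 and 24320 with fluoxetine and at 15140, 18270 and 19820 with vehicle, and only the lowest fluoxetine value was within the vehicle range. At inhibitory synapses 4 of 12 GABA-A receptor genes and 3 of 13 genes of GABA-B receptors and scaffolds rose, with 0 falls. Gabrb1, a receptor subunit, rose to 1.23-fold (adjusted p = 0.00033). The scaffold rises were 2 without the 5 olfactory outliers and 5 without the 3 striatal outliers. The 4 GABA-A rises were 1 and 2, and they were also 2 without WT fluoxetine male replicate 4 or WT vehicle male replicate 2. The 3 rises of GABA-B receptors and scaffolds were 0 without the olfactory outliers, without the striatal outliers or with quantile normalization. They were 1 without WT fluoxetine male replicate 4, WT vehicle female replicate 1 or WT vehicle male replicate 2.

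Of 41 synaptic adhesion genes 22 rose and 0 fell, with a median log2 change of 0.18. They code for proteins such as neurexins, neuroligins and receptor phosphatases that join both sides of a synapse. Nlgn3, an X-linked neuroligin (chromosome X, 101299168 to 101325963, GRCm38), was at 4294, 4741 and 5633 with fluoxetine and at 3372, 4065 and 4401 with vehicle. The groups overlapped at the edges, and Nlgn3 rose to 1.2-fold (log2 change 0.26, SE 0.04, adjusted p = 9.1e-06). Slitrk2 rose to 1.22-fold (adjusted p = 5.3e-05) and the receptor phosphatase gene Ptprs to 1.16-fold (adjusted p = 7.1e-05), both with groups apart. Ncam1, the neural cell adhesion molecule, rose to 1.14-fold (adjusted p = 7.6e-05). These are long transcripts, with a median of 4315.5 nucleotides over the list. The 22 rises were 10 after removal of the length and GC trend, and 8 either without the 5 olfactory or without the 3 striatal outliers.

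On the presynaptic side 8 of 55 genes of vesicle release rose and 0 fell, a share of 14.5%. The share called higher was 7.00% over all genes and 8.35% in the length decile that holds the median of this list. In the decile with the highest mean values, from 4129.94, it was 23.6%. Syn1, which tethers vesicles, was at 18920, 20720 and 23310 with fluoxetine and at 14350, 18180 and 19000 with vehicle, nearly apart, and rose to 1.19-fold (adjusted p = 0.00042). The active zone scaffolds Pclo and Bsn rose to 1.17-fold and 1.18-fold (adjusted p = 0.00084 and 0.0024). Neither was called after removal of the length and GC trend (adjusted p = 0.45 and 0.15), where 4 of the list rose. Of 25 genes of vesicle recycling and transmitter loading 9 rose, such as the membrane fission gene Dnm1 (1.16-fold) and the clathrin heavy chain Cltc (1.09-fold), and 1 fell, the short adaptor subunit Ap2s1 (0.813-fold, adjusted p = 6.2e-06). Cltc had a log2 change of 0.015 after removal of the length and GC trend (adjusted p = 0.85) and was not called with quantile normalization (adjusted p = 0.4). Each of these lists had 1 rise without the 5 olfactory outliers, and they had 3 and 2 without the 3 striatal outliers. The 9 recycling rises were 4 without WT fluoxetine male replicate 4 and 5 without WT vehicle male replicate 3.

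Ion channel genes that were called rose in every channel list. The lists had median transcript lengths of 6006.5 nucleotides for sodium, 3667 for potassium and 6984 for calcium channels. Of all genes, 25% were called higher in the longest decile, from 4898 nucleotides, and 8.35% in that from 3108.5 to 3803.5. Of 10 sodium channel genes 3 rose, with Scn8a, the channel of the axon initial segment in mature neurons, at 1.17-fold (adjusted p = 0.00024) and Scn2a, its earlier counterpart, at 1.18-fold (adjusted p = 0.014). Scn2a was not called without WT fluoxetine male replicate 4, after removal of the length and GC trend (adjusted p = 0.32), or without the olfactory (0.42) or striatal (0.17) outliers. In each of these 4 settings the sodium channel list had 1 rise. Of 43 potassium channel genes 10 rose. Kcna2, an axonal channel, was at 11130, 11660 and 12710 with fluoxetine and at 8809, 9972 and 10580 with vehicle, apart in every library, and rose to 1.18-fold (adjusted p = 0.00087). Its partner Kcna1 rose to 1.28-fold (adjusted p = 0.0026) and the calcium-activated channel Kcnma1 to 1.17-fold (adjusted p = 0.001). Of 21 calcium channel genes 6 rose, such as the release channel of the endoplasmic reticulum Ryr2 (1.22-fold, adjusted p = 8.7e-05) and Cacna1e (1.22-fold, adjusted p = 0.0013). The potassium channel rises were 4 after removal of the length and GC trend, 0 without the 5 olfactory outliers and 4 without the 3 striatal ones. The calcium channel rises were 5, 1 and 2.

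The axon initial segment, with its ankyrins and spectrins, was covered by 21 genes, of which 5 rose and 0 fell. Ank3, which codes for ankyrin-G, the organizer of the axon initial segment (chromosome 10, 69398773 to 70027438, GRCm38), was at 14620, 15430 and 18040 with fluoxetine and at 11160, 12890 and 14130 with vehicle. The groups were apart, and Ank3 rose to 1.24-fold (log2 change 0.31, SE 0.04, adjusted p = 4.2e-07). Ank2 itself, unaltered in all 19 mice, was at 29580, 32260 and 35820 with fluoxetine and at 23280, 28930 and 30850 with vehicle, with some overlap, and rose to 1.15-fold (adjusted p = 0.00035). The spectrin gene Sptbn1 rose to 1.12-fold with no overlap (adjusted p = 8.4e-06), but its log2 change was 0.06 after removal of the length and GC trend and was not called (adjusted p = 0.31). Without the 5 olfactory outliers 4 of the list rose, and without WT fluoxetine male replicate 1 there were 9. Among 27 genes of neurofilaments and microtubules 9 rose and 3 fell, again divided by size, with median transcript lengths of 7238.5 and 1610 nucleotides. The large proteins Map1b (1.24-fold), Map1a (1.2-fold) and the dynein heavy chain Dync1h1 (1.29-fold) rose, while tubulin Tuba1a (0.859-fold) and the tubulin-binding Stmn3 (0.867-fold) fell. Tuba1a has near-identical paralogs. Map1a was not called after removal of the length and GC trend (adjusted p = 0.051), nor Map1b without the olfactory outliers (adjusted p = 0.14). Removal of the length and GC trend gave 3 rises and 3 falls in this list, and leaving out the 5 olfactory outliers 4 and 3.

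Of 45 chromatin and transcription genes linked to autism 19 rose and 0 fell, with a median log2 change of 0.12 and a median transcript length of 3782 nucleotides. The share called higher was 7.00% over all genes and 8.35% in the decile from 3108.5 to 3803.5 nucleotides. The histone methyltransferase gene Ash1l was at 5682, 6264 and 7054 with fluoxetine and at 5041, 5348 and 5553 with vehicle. Each fluoxetine library was above each vehicle library, a rise to 1.18-fold (log2 change 0.23, SE 0.04, adjusted p = 1.1e-05). Groups overlapped for the corepressor subunit Tbl1xr1, which rose to 1.25-fold (adjusted p = 4.3e-05). The 19 rises were 12 after removal of the length and GC trend or without the 3 striatal outliers, and 6 without the 5 olfactory outliers. These included Ash1l and Tbl1xr1 in each case.

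Growth factor and activity genes, which antidepressants are often studied for, showed a few small changes. Bdnf, the brain-derived neurotrophic factor, was at 858.9, 908.5 and 1028 with fluoxetine and at 745, 868.8 and 968 with vehicle. The groups overlapped, and its log2 change of 0.08 (SE 0.09) did not pass (adjusted p = 0.64). Its receptor Ntrk2 changed by 0.08 (SE 0.03, adjusted p = 0.096). Of 27 genes of neurotrophin signalling 6 rose and 1 fell, where 7.00% of all genes were called higher and 7.78% lower. Crebbp, a histone acetyltransferase that works with CREB, was at 2540, 2766 and 3194 against 2207, 2323 and 2389, with no overlap, and rose to 1.23-fold (adjusted p = 2e-06). Creb1 rose to 1.15-fold (adjusted p = 0.00039) and Ntrk3 to 1.11-fold (adjusted p = 0.0018), whereas Vegfa, the vascular growth factor, fell to 0.85-fold (adjusted p = 0.0025). Without the 5 olfactory outliers only Crebbp of these was called, and Vegfa was not called after removal of the length and GC trend (adjusted p = 0.07), nor Ntrk3 with quantile normalization (adjusted p = 0.12).

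Of 42 immediate early genes 1 fell, Gadd45b, and 0 rose. There were 4 falls without WT fluoxetine male replicate 1, and 2 without WT fluoxetine female replicate 5 or WT vehicle female replicate 2. Fos was at 263.9, 304.8 and 1306 with fluoxetine and at 333.1, 573.1 and 923.8 with vehicle. Its highest value belonged to WT fluoxetine male replicate 1, and the other 8 were at 612.3 or less. The log2 change of -0.51 (SE 0.25) did not pass (adjusted p = 0.17). Without that library Fos fell by 0.79 on the log2 scale (adjusted p = 0.0109), and with library weights by 0.68 (adjusted p = 0.00865). Arc changed by -0.27 (SE 0.30, adjusted p = 0.64). Gadd45b, a stress and activity gene, was at 173, 201.7 and 221.3 against 211.7, 255 and 325.1 and fell to 0.769-fold (adjusted p = 0.0052), but not without the 5 olfactory outliers (adjusted p = 0.051). Among 27 genes that respond to glucocorticoids 1 fell, the metallothionein gene Mt1 (0.783-fold, adjusted p = 0.0066). Gadd45b and Mt1 were not called after removal of the length and GC trend (adjusted p = 0.066 and 0.091), nor was Mt1 without the olfactory outliers (adjusted p = 0.063). Single libraries moved the glucocorticoid counts, with 3 rises without WT fluoxetine male replicate 1 and 3 falls without WT vehicle female replicate 2.

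Calls among genes of stress and of defence against viruses were downward in the main comparison, where 7.78% of all genes were called lower. Of 26 genes of the unfolded protein, integrated stress and heat shock responses 3 fell. The median transcript length of this list was 1686 nucleotides. Atf4, the central factor of the integrated stress response, was at 2182, 2739 and 3005 with fluoxetine and at 3020, 3101 and 3329 with vehicle, just apart, and fell to 0.868-fold (adjusted p = 0.0012). Its target Ddit3 fell to 0.81-fold (adjusted p = 0.00069) and the mitochondrial chaperonin gene Hspe1 to 0.821-fold (adjusted p = 6.9e-07). Atf4 was not called after removal of the length and GC trend (adjusted p = 0.082), where 2 genes of this list rose and 2 fell. Of 25 genes of the interferon response and MHC class I 5 fell, among them Irf9 (0.806-fold, adjusted p = 0.0011), Ifitm3 (0.801-fold, adjusted p = 0.0048) and H2-D1 (0.883-fold, adjusted p = 0.01), which has close paralogs. Ifitm3 was at 187.4 to 242.1 in 8 fluoxetine libraries and at 325.5 in WT fluoxetine male replicate 1, against 213.6 to 377.3 with vehicle. Ifitm3 and H2-D1 were not called after removal of the length and GC trend (adjusted p = 0.071 and 0.78). The 5 interferon falls were 2 without the 5 olfactory outliers, 1 without the 3 striatal outliers and 1 after removal of the length and GC trend, where 1 rose. The median transcript length of the interferon list was 860 nucleotides. In females 5 of its genes were called lower, with a median log2 change of -0.29. In males 0 were called lower and 1 higher, with a median of -0.01. A difference between the sexes was called for 0 genes.

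Listed long noncoding RNAs went both ways, 2 of 13 higher and 3 lower, where 7.00% of all genes were called higher and 7.78% lower. Median transcript lengths were 46849 nucleotides for the rises and 629 for the falls. Malat1, an abundant RNA of nuclear speckles, was at 42970, 62250 and 100800 with fluoxetine and at 43080, 49490 and 56850 with vehicle, and rose to 1.28-fold (adjusted p = 0.018). It was not called without WT fluoxetine female replicate 5 or WT fluoxetine male replicate 1. Kcnq1ot1, an imprinted RNA that silences its neighbours, rose to 1.33-fold (adjusted p = 0.00041), and Gas5, the host of small nucleolar RNAs, fell to 0.84-fold (adjusted p = 0.0012). Without the 5 olfactory outliers limma called none of these 5, with Kcnq1ot1 at an adjusted p = 0.053, and Kcnq1ot1 was not called after removal of the length and GC trend (adjusted p = 0.14). Of 25 genes of perineuronal nets and the extracellular matrix 4 rose and 1 fell, with Tnr, which builds the nets, at 1.19-fold (adjusted p = 0.00051), the link protein gene Hapln4 at 1.26-fold (adjusted p = 0.014) and Lgals1 at 0.833-fold (adjusted p = 0.004, and 0.12 after removal of the length and GC trend). In that list 0 rose and 1 fell without the 5 olfactory outliers.

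In RNA of whole tissue, fewer cells of a type and less RNA per cell cannot be told apart. Cell type markers gave few calls, with at most 1 in each list of neuron types or layers and in that of oligodendrocytes. Of 10 excitatory neuron markers limma called 0, with 3 at an unadjusted p under 0.05 and a median log2 change of 0.13. Camk2a, the kinase of excitatory synapses, was at 74630, 101100 and 106800 with fluoxetine and at 69630, 89970 and 102000 with vehicle (adjusted p = 0.098). The summed level of these markers was 148186 to 215789 with fluoxetine and 137486 to 196775 with vehicle, none of them at 0, and their part in the rise of synaptic genes was not tested. Of 24 inhibitory markers 1 fell, the neuropeptide gene Cort (0.738-fold, adjusted p = 0.0063, and 0.081 after removal of the length and GC trend), and Pvalb, the marker of fast-spiking cells, changed by -0.08 (SE 0.10, adjusted p = 0.68). Of 19 markers of oligodendrocytes and myelin 0 were called, and 0 had an unadjusted p under 0.05.

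Astrocyte, microglia and vessel markers had few calls, in shares near the 7.00% and 7.78% of all genes. Of 17 astrocyte markers 1 rose and 2 fell. Slc1a2, the main glutamate transporter, was at 97760, 120800 and 132500 with fluoxetine and at 68310, 102000 and 110300 with vehicle, and rose to 1.25-fold (adjusted p = 0.00084), while Mlc1 fell to 0.869-fold and S100b to 0.89-fold. Gfap changed by 0.03 (SE 0.12, adjusted p = 0.93). Among 20 microglia markers the receptor gene Csf1r rose to 1.17-fold (adjusted p = 0.014) and Aif1, coding for IBA1, fell to 0.789-fold (adjusted p = 0.011). Among 20 markers of endothelial cells and pericytes 2 rose and 1 fell, Cldn5, the tight junction protein of the blood-brain barrier (0.842-fold, adjusted p = 0.0061). Without the 5 olfactory outliers Slc1a2 stayed called and the other 5 named genes did not, and without the 3 striatal outliers only Slc1a2 and Csf1r of the 6 were.

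Blood markers were the marker list with the largest median change. Of 6 measured, 4 fell and 0 rose, with a median log2 change of -0.52. The adult beta globin Hbb-bt was at 266.3, 334.6 and 517.5 with fluoxetine and at 494.4, 564.9 and 931.2 with vehicle, with 2 fluoxetine libraries inside the vehicle range. It fell to 0.564-fold (log2 change -0.83, SE 0.20, adjusted p = 0.0028). Hbb-bs fell to 0.673-fold (adjusted p = 0.024) and Hba-a2 to 0.674-fold (adjusted p = 0.021), although globin copies can share reads. Hbb-bs was not called without WT fluoxetine male replicate 3. Without the 5 olfactory outliers the 3 globin genes had an adjusted p = 0.052, 0.13 and 0.17. After removal of the length and GC trend Hbb-bt was called (adjusted p = 0.012), and Hbb-bs and Hba-a2 were not (0.12 for both). This list fell in 5 of 6 cases in HT, and how much blood each piece of tissue held is not given.

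**Figure D3:**
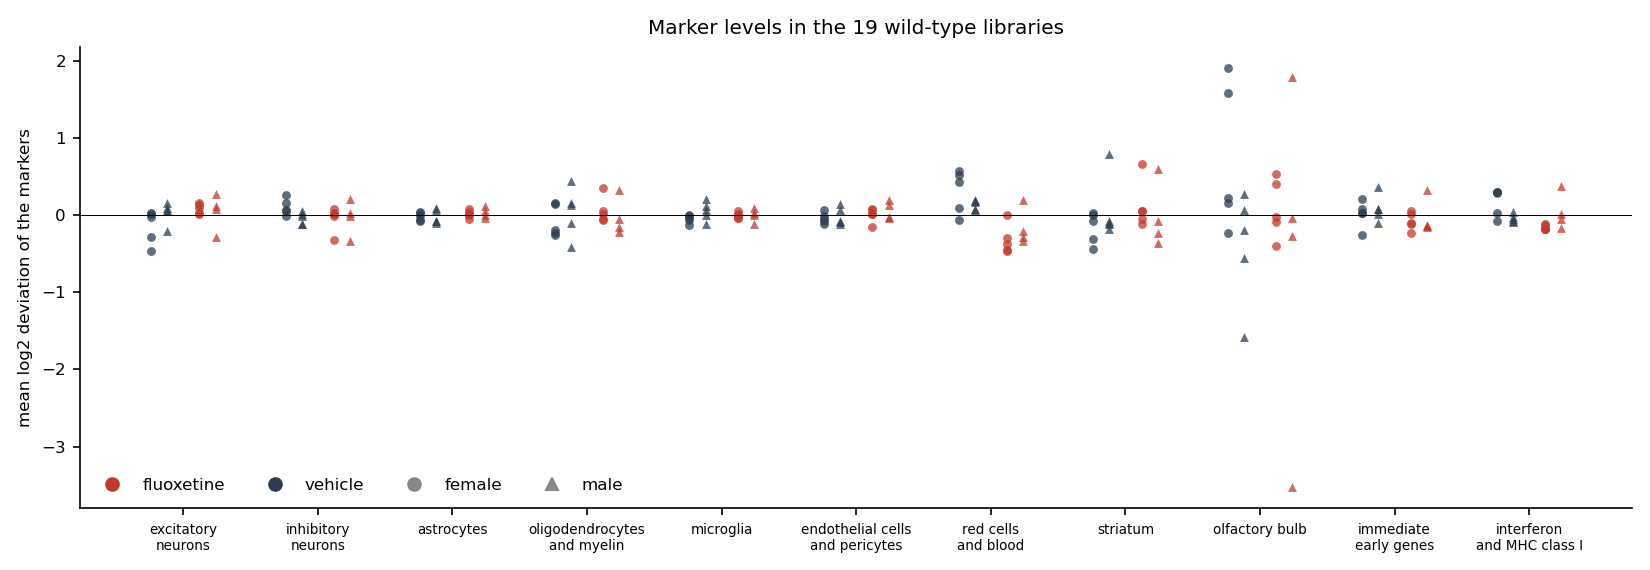
Mean log2 deviation of the markers of 11 cell types, regions or programmes (x axis) from their mean over the 19 wild-type libraries (y axis), 1 point per library, vehicle in dark blue and fluoxetine in red, circles for females and triangles for males. Olfactory bulb markers spread the most, from -3.53 to 1.90, and blood markers lie lower in most fluoxetine libraries.

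Across all genes the change followed the length of the transcript, and the share of genes called also varied with their level. Called genes that rose had a median length of 3999.75 nucleotides and spanned a median of 75.5 kb of genome, and those that fell had 983 nucleotides and 7.97 kb, against 2190.75 nucleotides and 21.952 kb for all genes tested. Their GC content was 47.3%, 53.2% and 50.4%. The median of the mean values was 2676.89 for genes that rose and 849.437 for genes that fell. In the decile with the lowest mean values 2.37% were called higher and 0.887% lower. In the decile with the highest, from 4129.94, the shares were 23.6% and 5.26%. Most falls by share were in the decile from 316.286 to 542.877, at 12.1%. Length and level were not separated. In the shortest decile of the genes, of 156 to 765 nucleotides, 2.77% were called higher and 24.1% lower, with a median log2 change of -0.09. In the longest decile, from 4898 nucleotides, 25% were called higher and 0.177% lower, with a median of 0.10. Within the shortest decile the calls were unequal. Of 135 genes of the ribosome, respiratory chain, import, proteasome and Sm lists 111 fell (82.2%) and 0 rose, with a median of -0.25. Of the other 1559 genes 297 fell (19.1%) and 47 rose (3.01%), with a median of -0.08. The lists were chosen with earlier results of these data known, and the other genes were not matched to them in level. No conclusion is drawn from this contrast. After the trend with length and GC content was removed from every library, 731 genes were called higher and 695 lower, and 1058 of these 1426 were among the 2500 called before. Among lists whose length is not given above, medians were 1271.5 nucleotides for the proteasome, 933 for Sm and LSm proteins and 3509 for vesicle release. They were 4152 for ankyrins and spectrins, 4805 for NMDA receptors, 2816 for GABA-A receptors and 2415 for neurotrophin signalling.

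**Figure D4:**
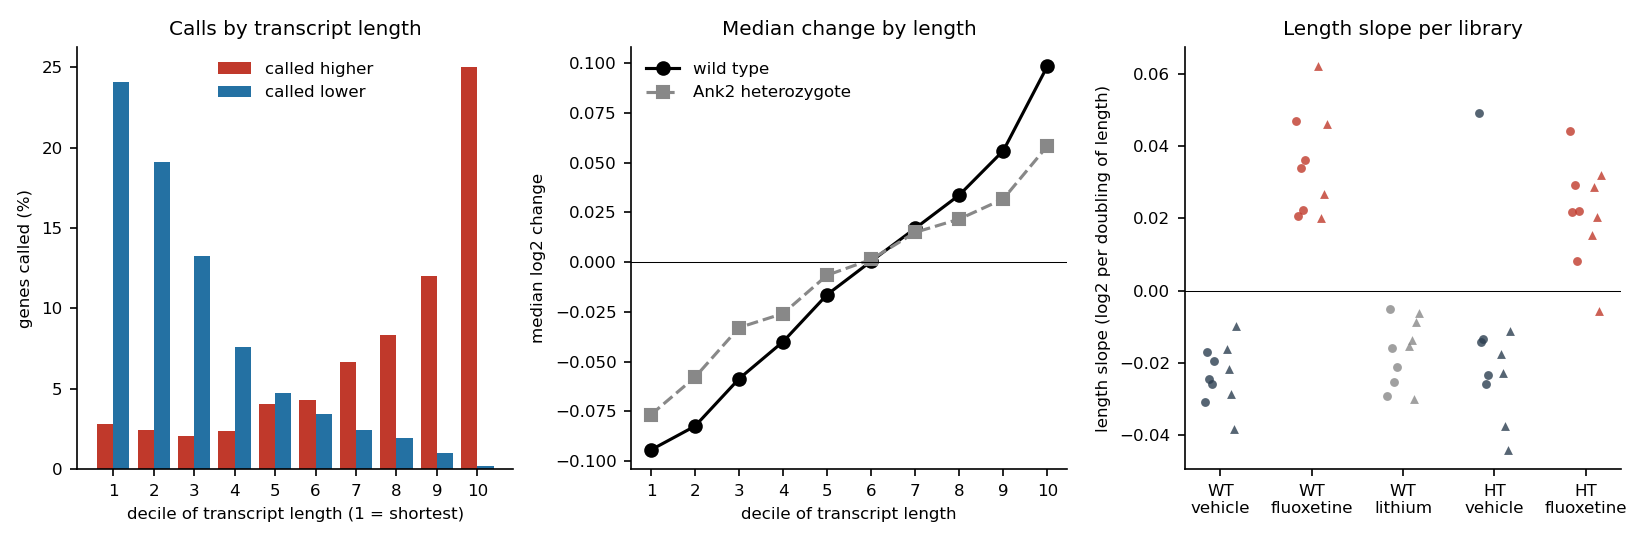
Left, percent of genes called higher (red) or lower (blue) in WT fluoxetine against vehicle by decile of transcript length, from 24.1% lower in the shortest to 25% higher in the longest. Centre, median log2 change per decile in WT (black) and HT (grey), rising with length in both. Right, length slope of each library in 5 groups (circles female, triangles male), where the WT fluoxetine libraries lie at 0.0201 or above and all WT vehicle and WT lithium libraries below 0. HT lithium libraries, at -0.0433 to 0.0461, are not drawn.

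The same comparison was made within each sex. In females (5 against 5 libraries) 775 genes were called higher (4.58%) and 673 lower (3.98%), and in males (4 against 5) 334 higher (1.97%) and 562 lower (3.32%). Of the 363 genes called in both sexes all had the same sign. Of the 1448 called in females 1304 had the same sign in males, and of the 896 called in males 838 had the same sign in females. The sexes contributed different libraries to these values but were fitted with 1 common spread. Rpl26 changed by -0.40 in females and -0.41 in males on the log2 scale, Usmg5 by -0.48 and -0.50, Nf1 by 0.34 and 0.31 and Grin2b by 0.51 and 0.25. Synaptic adhesion genes rose in 20 of 41 cases in females and in 4 in males. A test of the difference between the sexes called 0 genes by limma, with 1447 at an unadjusted p under 0.05, so no gene is shown to respond differently. The smallest p in that test belonged to Dcaf17, with log2 changes of -0.25 in females and 0.40 in males, and Rabepk, with 0.33 and -0.24 (adjusted p = 0.32 for both). The counts within a sex depended on single libraries, such as 294 higher in females without WT vehicle female replicate 1 and 81 higher in males without WT fluoxetine male replicate 1.

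**Figure D5:**
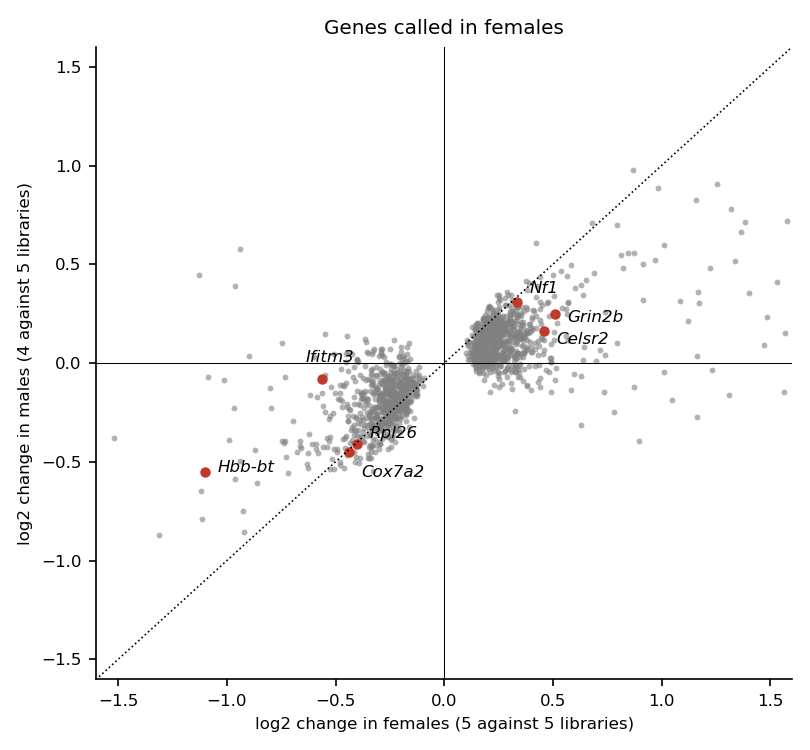
Log2 change with fluoxetine in females (x axis, 5 against 5 libraries) and males (y axis, 4 against 5) for the genes called in females, 8 of which lie outside the plotted range of 1.6 either way. Most points, 1304 of 1448, have the same sign in males, and named genes are marked in red.

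The HT mice gave the same contrast in other libraries. There limma called 1122 genes higher (6.63%) and 1248 lower (7.38%) with fluoxetine. Of the 2500 genes called in WT, 2371 had the same sign in HT and 1161 were called there with that sign. Rpl26 changed by -0.29 in HT on the log2 scale (adjusted p = 6.5e-07), Usmg5 by -0.50 (adjusted p = 5.1e-11), Fdps by -0.33 (adjusted p = 5.1e-06), Grin2b by 0.28 (adjusted p = 0.00047), S100a10 by -0.31 (adjusted p = 0.00012) and Hbb-bt by -0.92 (adjusted p = 0.00074). In HT 30 large and 26 small subunit ribosomal genes fell, with 30 of complex I and 10 of cholesterol synthesis, and 15 synaptic adhesion genes rose. Genes with the smallest p in the test of WT against HT changes were Pnpla7 (-0.11 in WT, 0.49 in HT), Nf1 (0.32 in WT, 0.09 in HT), Ddx6 (0.17 in WT, -0.02 in HT) and Cd93 (0.05 in WT, -0.43 in HT), with an adjusted p = 0.26 for each. That test called 0 genes by limma, with 1291 at an unadjusted p under 0.05. Of 42 immediate early genes 15 fell in HT and 1 in WT, and Fos changed by -1.27 in HT (adjusted p = 0.00016) and by -0.51 in WT (adjusted p = 0.17). The length slopes of HT fluoxetine libraries, -0.0056 to 0.0441, overlapped those of HT vehicle libraries, -0.0441 to 0.0492, through 1 HT vehicle library. HT lithium libraries, which had no fluoxetine, had slopes of 0.0058 to 0.0461 in females and -0.0433 to -0.0159 in males. The female values reached into the range of the WT fluoxetine libraries, 0.0201 to 0.0621. What set the slope of a library was not tested.

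WT mice on lithium, another drug given by the same route, allow a view of the WT fluoxetine libraries that uses no vehicle library. Against lithium 1702 genes were higher with fluoxetine (10.1%) and 1896 lower (11.2%). Both comparisons share the fluoxetine libraries, and their values are therefore only set side by side. Rpl26 was at 4218, 4514 and 4973 in the lithium libraries, Usmg5 at 2651, 2970 and 3340 and Grin2b at 20360, 22810 and 25620, each within or near the vehicle range and outside that of fluoxetine. Fdps was at 1127, 1337 and 1544 with lithium and S100a10 at 507.4, 530.5 and 560.5. Fos was at 687.3, 1269 and 1552 with lithium, above most libraries of both other groups, and Bdnf at 860.1, 1196 and 1425. The length slopes of the lithium libraries, -0.03 to -0.0052, lay in the range of the vehicle libraries or just above it and below every WT fluoxetine library.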

How the data were processed

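The table holds values for 51456 gene identifiers in 59 libraries. The tools named are DESeq2 1.19.11, R 3.6.0 and Salmon 0.11.2, on GRCm38, per the submitters' processing notes. The deposited values are a normalized signal, taken here to be normalized estimated counts. The values do not show whether a library had a common factor for all its genes. Whole reads could not be recovered (28.75% to 61.42% of low values were whole within 0.1 of a step), so no count test was run. How the values were normalized is not given in the sources used here.

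From these values log2(value + 1) was computed for the 16919 genes whose mean in the 59 libraries reached 10, so fold changes of low genes are understated. limma 3.58.1 in R 4.3.3 (trend, robust, two-sided) was fitted to 12 means of genotype, drug and sex over every library, with 47 residual degrees of freedom. WT effects are the mean of both sexes. Benjamini-Hochberg adjusted p under 0.05 was a call. The fit was tested on simulated data with independent noise. These data held no outlying library or litter, and no length slope where calls were counted. They therefore do not test the calls under such features. Tables and plots used Python 3.11.15, pandas 2.3.3, NumPy 2.4.6 and matplotlib 3.10.9. A transcript length is the median over the transcripts of a gene in the GENCODE annotation of GRCm38. The length slope of a library used genes with a mean of at least 250. To remove the trend with length and GC content, a spline with 5 degrees of freedom for each was fitted to every library (16908 genes). Other alternatives were pseudocounts of 0.5 and 10, other filters, median centring, quantile normalization, WT groups only, library weights, a replicate block and leaving out libraries.

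Named genes were the 15 largest rises and the 15 largest falls that were called, reached a mean of 50 and went the same way in females and males, the 10 smallest p in each direction, up to 4 called members of each list in each direction (the 2 smallest p where none was called), 14 genes of prior interest such as Slc6a4 and Bdnf, and up to 5 genes for each test of a difference. The text gives a selection of these, plus the genes called with the length slope as a covariate. The members and lists were chosen with earlier results of these data known. Some genes are not reported here.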

Additional observations from a re-analysis of the deposited data

Results flagged for a closer look

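In each group of 9 or 10 libraries the highest and lowest values of the named genes and of the marker levels were compared with the rest by Dixon's ratio. Of 318 such groups 35 had a library beyond the 95% critical value, where chance gives about 1 in 20.

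WT fluoxetine male replicate 1 stood apart most often. It was low for Ap2s1 (2415, others 3240 to 3659), Camk2a (74630, others 94630 to 106800), Smpd1 (2707, others 3102 to 3360) and Snrpg (157.7, others 320.8 to 401.5). It was high for the activity genes Arc (3762, others 1121 to 2445) and Fos (1306, others 263.9 to 612.3), and the mean log2 deviation of all immediate early genes was 0.323 there against -0.238 to 0.0451. It was also high for Irf9 (437.3, others 270.6 to 321.6), Ifitm3 (325.5, others 187.4 to 242.1) and the interferon and MHC list (0.377, others -0.183 to 0.00785). Hbb-bs at 3911 (others 1907 to 2771) and Ncor1 at 9482 (others 7863 to 8548) were its remaining high values. Excitatory neuron markers were low in it, at -0.283 against 0.0177 to 0.267.

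Other fluoxetine libraries stood apart less often. Male replicate 4 was high for Gabrb1 (6864, others 5440 to 6099), Grm5 (8223, others 6331 to 7207) and Syn1 (23310, others 18920 to 21080), and its olfactory bulb level was -3.53 against -0.403 to 1.79. Female replicate 5 was high for Hapln4 (3007, others 1981 to 2398) and Prrc2b (23190, others 19780 to 21250). It was low for Atf4 (2182, others 2634 to 3005), Tmem97 (267.6, others 308.1 to 343.9) and upper layer markers (-0.299, others 0.0274 to 0.131). Dync1h1 was at 42520 in female replicate 2 and at 21090 to 31240 in the others.

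Among vehicle libraries, female replicate 1 was low for Grin2b (18280, others 23230 to 27750), Scn2a (9619, others 12100 to 14560), Gabrb1 (3575, others 4628 to 5524) and Fdps (1102, others 1331 to 1580). It was high for Gas5 (2693, others 2147 to 2438) and H2-D1 (1269, others 864.3 to 1079). Male replicate 4 was high for Eef1b2 (3195, others 2640 to 2935) and Elob (2774, others 2409 to 2572), and male replicate 2 for Gadd45b (325.1, others 211.7 to 267.4) and striatal markers (0.785, others -0.443 to 0.027). Hspe1 was at 1447 in female replicate 3 (others 1306 to 1354), and Rpl22l1 was at 728.8 in male replicate 5 (others 822.7 to 910.7). Their part in the results was not tested beyond leaving libraries out.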

How the results depend on the processing

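In WT, 731 genes were called higher and 695 lower after removal of the length and GC trend, 5 and 2 with the length slope as a covariate, 279 and 519 without the 5 olfactory outliers, and 609 and 876 without the 3 striatal outliers. Leaving out 1 library gave 904 to 1213 and 1143 to 1369. In females the counts were 502 and 441 in a fit of WT fluoxetine and vehicle only, 1211 and 435 with centred medians, 486 and 287 without the length and GC trend, 62 and 24 with the slope, and 141 and 276 without the olfactory outliers, and quantile normalization gave 463 higher. In males 207 were higher without a filter on low values, 349 lower in the fit of WT fluoxetine and vehicle only, and 200 higher without the striatal outliers. Without the length and GC trend males had 99 and 147, with the slope 0 and 0, and without the olfactory outliers 2 and 26. Leaving out 1 library gave 294 to 866 and 380 to 731 in females, and 81 to 373 and 204 to 598 in males. Counts in females moved by more than 1.5-fold without WT fluoxetine female replicates 1 (489 higher) or 5 (463), or WT vehicle female replicates 1 (294 higher, 380 lower) or 2 (476 higher). In males they did so without WT fluoxetine male replicate 1 (81 and 204) or WT vehicle male replicates 3 (188 and 374) or 4 (152 and 321).

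The sex difference had 0 to 1 genes higher, the 1 without WT vehicle male replicate 2, and 0 to 0 lower. The genotype difference had 1 higher with library weights and 0 in either direction without any 1 library. Against lithium there were 2579 and 1255 with centred medians and 382 and 480 with the slope (1347 to 1765 and 1643 to 1934 without 1 library). In HT 1839 were higher with library weights and 818 lower with the slope (1103 to 1218 and 1233 to 1336 without 1 library).

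Same-numbered libraries did not deviate together (r from -0.317 to 0.201), so the numbers were not taken as pairs. With the replicate block 2554 genes were called, 2391 of them shared. The replicate block with the length and GC trend removed gave 714 higher and 740 lower in WT, 448 and 287 in females and 123 and 206 in males.

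With the slope as a covariate the log2 change of 15 named genes turned: Ash1l -0.0471, Cacna1e -0.0473, Cltc -0.0142, Creb1 -0.0111, Ddx6 -0.00445, Grm5 -0.125, Kcnma1 -8.91e-05, Lrrc7 -0.038, Malat1 -0.0675, Map1b -0.0278, Mlc1 0.0464, Mt1 0.126, S100b 0.00504, Scn2a -0.051 and Snrpg 0.0111. Because the WT groups do not overlap on this slope, the slope and the drug cannot be told apart. Genes with a mean under 10, such as Slc6a4, were too low to test. The cause of the other moves was not tested, beyond the smaller number of libraries where some were left out.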

Other observations

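Further gene groups showed no broad movement. Of 20 circadian clock genes 2 rose and 0 fell. Of 45 genes of lysosomes and sphingolipid breakdown, where cationic drugs such as fluoxetine collect, 1 rose and 5 fell, with a median log2 change of -0.01, and 1 fell without the 3 striatal outliers. Of 11 markers of oligodendrocyte precursors, 13 of fibroblasts and meninges and 12 of the choroid plexus limma called 0, with 2, 0 and 0 at an unadjusted p under 0.05. Called genes that rose included 109 long noncoding RNAs and those that fell included 50.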
